A study of Homo sapiens with 2 samples.

Results

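The TRiC/CCT chaperonin is built from 8 different subunits, encoded by TCP1, CCT2, CCT3, CCT4, CCT5, CCT6A, CCT7 and CCT8. These 8 genes were picked by symbol from the 43337 genes listed for both libraries, and each symbol was found once. RNA sequencing compared 1 library of BT549 cells carrying SIK1 S435D with 1 library of BT549 cells carrying wild-type SIK1 (WT). BT549 is an established human breast cancer line of the triple-negative kind, which lacks oestrogen receptor, progesterone receptor and HER2 amplification. Both groups overexpress SIK1, a serine/threonine kinase of the AMPK family, and in S435D an aspartate takes the place of a serine, a change often made to imitate phosphorylation. Cells without a construct were not analysed here, and the labels give no vector, promoter, clone or culture number. Since each group is 1 library, the spread between cultures is unknown and nothing was tested; every interval given is a 95% interval for counting error only.

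TRiC is a cytosolic folding machine made of 2 back-to-back rings, each holding 1 copy of every subunit, so the assembled complex needs equal numbers of all of them. Unfolded chains enter the cavity and a lid built from the subunits closes over them when ATP is used. Actin and tubulin depend on it, as do many proteins with WD40 propellers, and STAT3 is among its described clients. Around the ring the subunits stand in the order TCP1, CCT4, CCT2, CCT5, CCT7, CCT8, CCT6A, CCT3. CCT4, CCT2, CCT5 and CCT7 lie on the side that uses ATP strongly, and CCT8, CCT6A and CCT3 on the side that binds it weakly, as worked out largely on the yeast complex.

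The S435D library held 23520828 reads assigned to genes and the WT library 22366506, recovered from the deposited RPKM values (reads per kilobase of gene, scaled to the library's total). SIK1 itself stood at 422 RPKM in S435D and 380 RPKM in WT, a measure that does not separate construct from endogenous transcript. Mesenchymal VIM was at 113 RPKM in S435D and 116 RPKM in WT, and ESR1 had 0 reads in S435D and 1 read in WT. Other mesenchymal genes were far lower than VIM. SPARC was at 12.9 RPKM in S435D and 14.7 RPKM in WT, and ZEB1 at 6.34 RPKM in S435D and 5.98 RPKM in WT. CDH2 was at 2.11 RPKM in S435D and 2.25 RPKM in WT, and FN1 at 1.17 RPKM in S435D and 1.16 RPKM in WT. Epithelial EPCAM, at 2.11 RPKM in S435D and 2.48 RPKM in WT, was about as high as CDH2 and higher than FN1. These markers thus did not all separate a mesenchymal from an epithelial profile. Epithelial CDH1 was at 0.798 RPKM in S435D and 0.651 RPKM in WT, and PGR had 0 reads in both. Reads of the mitochondrial chromosome made up 5.15% of the S435D library and 4.32% of the WT library.

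The promoters of 5 subunits are shown because these genes span the range of levels described next, CCT3 and CCT7 at its top and TCP1 and CCT2 at its bottom, and because CCT4, TCP1 and CCT7 have a second gene starting close by on the opposite strand. Each line gives the 250 bases before the RefSeq gene start (GRCh38.p14), read 5′ to 3′ on the gene's own strand. They lie at chr1:156338293-156338542 on the minus strand (CCT3), chr2:73234058-73234307 on the plus strand (CCT7), chr2:61888672-61888921 on the minus strand (CCT4), chr6:159789603-159789852 on the minus strand (TCP1) and chr12:69585209-69585458 on the plus strand (CCT2). Capitals mark matches, on either strand, to the CCAAT box, the GC box with the letters GGGCGG and an ETS-type site spelled TTCCGG. They also mark the inward heat shock unit GAANNTTC, the outward heat shock unit TTCNNGAA, the E-box with CACGTG and the TATA box with TATAAA.
CCT3: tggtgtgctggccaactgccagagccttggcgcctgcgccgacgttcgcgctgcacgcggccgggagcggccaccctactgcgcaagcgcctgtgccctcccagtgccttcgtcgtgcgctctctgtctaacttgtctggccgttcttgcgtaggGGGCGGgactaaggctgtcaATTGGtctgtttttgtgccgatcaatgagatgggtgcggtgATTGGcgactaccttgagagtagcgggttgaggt
CCT7: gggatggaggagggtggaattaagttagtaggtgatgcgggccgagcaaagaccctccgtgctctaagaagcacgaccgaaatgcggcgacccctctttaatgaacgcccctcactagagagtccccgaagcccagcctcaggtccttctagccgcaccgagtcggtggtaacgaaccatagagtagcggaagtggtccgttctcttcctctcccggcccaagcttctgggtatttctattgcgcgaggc
CCT4: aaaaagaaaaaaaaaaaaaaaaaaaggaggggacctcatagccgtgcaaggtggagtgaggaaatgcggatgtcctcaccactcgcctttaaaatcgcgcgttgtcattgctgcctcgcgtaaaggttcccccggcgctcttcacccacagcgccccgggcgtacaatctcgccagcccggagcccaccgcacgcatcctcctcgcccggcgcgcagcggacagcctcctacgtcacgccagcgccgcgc
TCP1: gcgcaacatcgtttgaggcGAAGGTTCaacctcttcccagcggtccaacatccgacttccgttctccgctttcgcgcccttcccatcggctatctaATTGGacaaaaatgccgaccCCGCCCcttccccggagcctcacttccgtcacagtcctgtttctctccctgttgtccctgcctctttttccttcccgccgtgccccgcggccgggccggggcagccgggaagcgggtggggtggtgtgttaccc
CCT2: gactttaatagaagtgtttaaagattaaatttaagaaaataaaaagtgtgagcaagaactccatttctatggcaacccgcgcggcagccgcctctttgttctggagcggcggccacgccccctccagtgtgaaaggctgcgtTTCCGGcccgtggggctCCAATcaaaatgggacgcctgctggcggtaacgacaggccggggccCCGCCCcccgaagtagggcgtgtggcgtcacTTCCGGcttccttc

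Windows were given for 7 of the 8 subunits, all but CCT6A. That of CCT5 belongs to a start 616 bases downstream of the RefSeq gene start. It therefore lies inside the gene's listed span, and it is still counted among the 7. CCAAT occurred in 4 of the 7 (CCT2, CCT3, CCT8 and TCP1), against 33.9% of 11357 windows of expressed genes and 32.0% of all 35116 windows. GGGCGG occurred in the same 4, against 66.5% of the windows of expressed genes. TTCCGG occurred in 2, CCT2 and CCT5, against 24.2%. The heat shock unit GAANNTTC was found once, in TCP1, against 4.09%, and the outward unit, the E-box and the TATA box were found in 0 of the 7, against 5.17%, 8.70% and 5.09% of the windows of expressed genes. The windows of CCT7 and CCT4 held none of the 7 patterns in the letters given, whereas that of CCT3, the highest subunit, held CCAAT and GGGCGG. Sites of the same kinds spelled otherwise were not searched. By RPKM, CCT7 and CCT4 were the second and the next highest subunits, but by coding length CCT4 had rank 4 in both libraries. These are letter matches in short windows and show no binding. For each of the 5 windows shown the RefSeq start lies inside the longer span that the deposited table gives the gene, so none ends at the table's start.

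All 8 subunits were among the more abundant genes of both libraries. Their levels ran from 34.6 RPKM for CCT2 to 437 RPKM for CCT3 in the S435D library, and from 39.5 RPKM for CCT2 to 467 RPKM for CCT3 in the WT library. CCT2, the lowest, still exceeded 87.9% of the 9985 expressed protein-coding genes in S435D and 89.1% in WT, expressed meaning a mean of at least 1 RPKM. The medians over the 8 were 90.3 RPKM in S435D and 97.9 RPKM in WT. Together the 8 took 0.489% of all reads in S435D and 0.511% in WT.

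On the side of the ring that uses ATP strongly, CCT7, the eta subunit, was at 350.5 RPKM in the S435D library and 348.7 RPKM in the WT library. CCT4, the delta subunit, was at 110.3 RPKM in S435D and 118 RPKM in WT. CCT5, the epsilon subunit, in which a mutation is known to cause a sensory neuropathy, was at 103 RPKM in S435D and 109.7 RPKM in WT. The beta subunit CCT2, mutated in a form of inherited retinal degeneration, was at 34.6 RPKM in S435D and 39.5 RPKM in WT. Neighbours in the ring thus differed widely in mRNA level, with CCT2 lowest of all between CCT4 and CCT5.

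On the remaining side, CCT3, the gamma subunit, was the highest of all at 437 RPKM in S435D and 467 RPKM in WT. CCT8, the theta subunit, was at 77.4 RPKM in S435D and 86.2 RPKM in WT. The zeta subunit CCT6A was at 65.6 RPKM in S435D and 67.1 RPKM in WT. TCP1, the alpha subunit after which the complex was first named, was at 60.0 RPKM in S435D and 58.0 RPKM in WT. CCT3 and CCT7 therefore stood apart from the remaining 6, and CCT3 and CCT7 together made up 63.6% of the summed RPKM of the complex in S435D and 63.0% in WT.

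**Figure D1:**
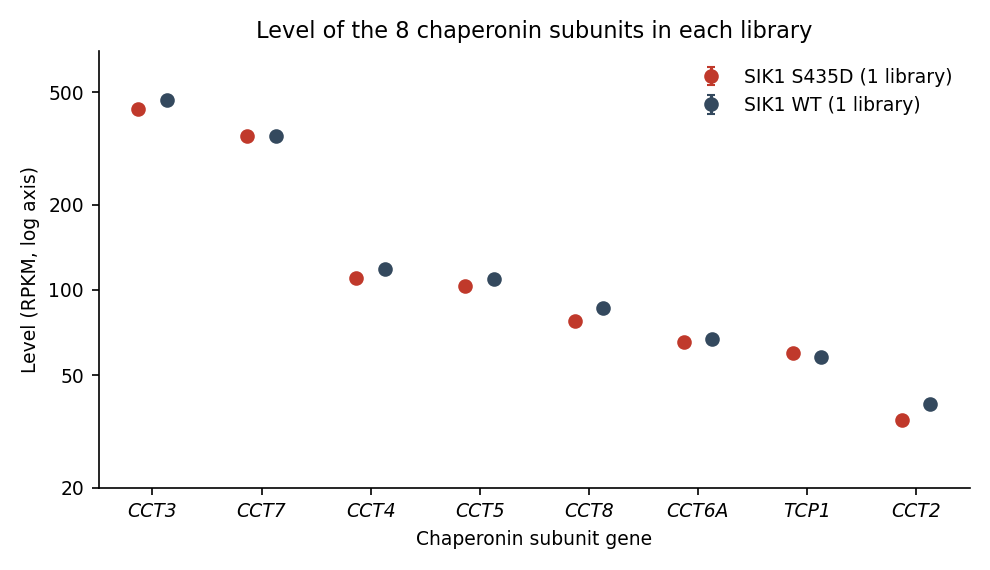
Level of each chaperonin subunit gene in RPKM on a log axis, S435D to the left of WT, 1 library each, with 95% counting intervals that are mostly smaller than the points. The order is the same in both libraries, from CCT3 (437 RPKM in S435D, 467 RPKM in WT) to CCT2 (34.6 RPKM in S435D, 39.5 RPKM in WT).

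The order of the 8 levels was the same in both libraries, namely CCT3, CCT7, CCT4, CCT5, CCT8, CCT6A, TCP1, CCT2. The largest step lay below CCT7, which was 3.18 times (3.10 to 3.26) the level of CCT4 in S435D and 2.95 times (2.87 to 3.03) in WT. The smallest step lay between CCT4 and CCT5, at 1.07 times (1.04 to 1.1002) in S435D and 1.08 times (1.05 to 1.11) in WT. CCT6A was 1.09 times (1.06 to 1.13) TCP1 in S435D and 1.16 times (1.12 to 1.1999) in WT. Each neighbour in the order differed beyond counting error, while the spread over repeat libraries is unknown.

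The levels depend on the length by which reads are divided. The deposited length counts every annotated exon base of a gene and ran from 2830 bases for CCT4 to 5839 bases for CCT5, whereas the coding part of the principal transcript in GENCODE release 29 ran from 1593 bases for CCT6A to 1668 bases for TCP1. Per coding length, CCT5 moved up by 1 place to follow CCT7, at a length-scaled level of 371 in S435D and 395 in WT, and CCT4 followed at 193 in S435D and 207 in WT. CCT8 dropped to the seventh place in S435D, at 157, and kept the fifth in WT, at 175. CCT3, CCT7 and CCT2 held the first, second and last places with the deposited, the principal-transcript and the coding length in both libraries. The gap between highest and lowest was 12.6-fold in S435D and 11.8-fold in WT by the deposited length, and 11.5-fold and 10.8-fold by coding length in S435D and WT.

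**Figure D2:**
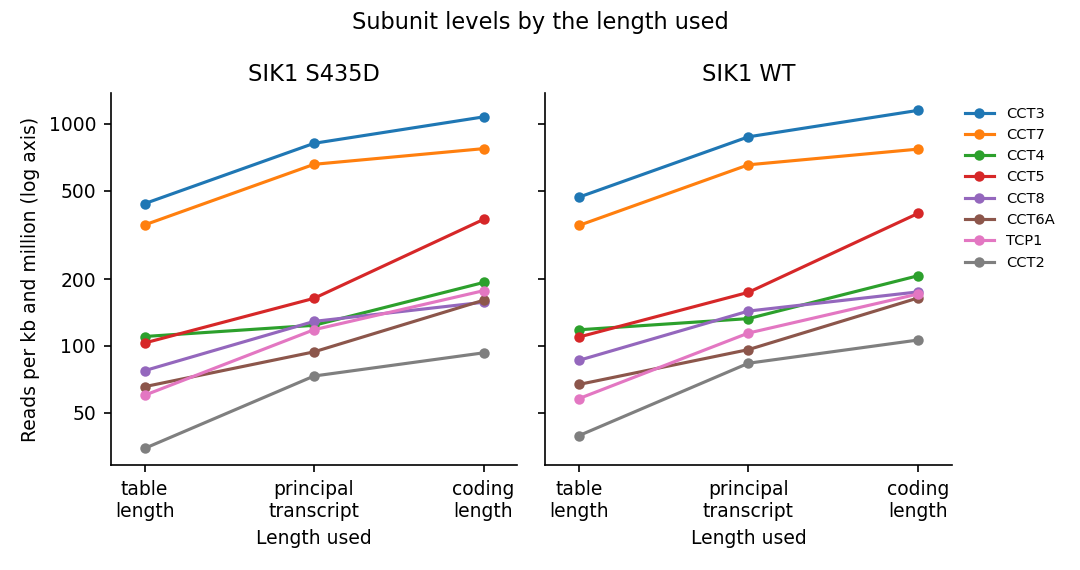
Length-scaled level (RPKM computed with each length) of each subunit on a log axis, with the deposited gene length, the principal transcript length and the coding length as divisor, S435D in the left panel and WT in the right. CCT3, CCT7 and CCT2 keep their places, and CCT5 reaches 371 in S435D and 395 in WT by coding length.

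GC content separated the same genes. The principal transcripts of CCT3 and CCT7 held 51.2% and 51.8% G and C, and those of the remaining 6 between 43.1% (CCT8) and 44.7% (CCT4). Over all expressed genes with a principal transcript from 51% to below 53% GC, the median level was 6.73 RPKM in S435D and 6.97 RPKM in WT. From 43% to below 46% GC it was 5.02 RPKM in S435D and 5.16 RPKM in WT. The part of GC content in the levels of CCT3 and CCT7 was not tested.

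Unequal levels were also found among the genes of the other complexes that were read beside the chaperonin. Across the 8 chaperonin subunits the SD of log2 levels was 1.26 in S435D and 1.24 in WT. Prefoldin, the holder that passes unfolded actin and tubulin to TRiC, had an SD of 1.78 in S435D and 1.86 in WT over 6 subunits. PFDN2 was at 714 RPKM in S435D and 769.5 RPKM in WT. The next, PFDN6, was at 78.3 RPKM in S435D and 76.9 RPKM in WT. Their deposited lengths differ, at 677 bases for PFDN2 and 2953 for PFDN6. In reads, PFDN2 had 11374 in S435D and 11652 in WT, and PFDN6 had 5439 in S435D and 5076 in WT. Other lengths were tried for the chaperonin only, so these SDs rest on the deposited lengths. The 14 subunits of the 20S proteasome core, the protease of the cytosol and nucleus, had 1.33 in S435D and 1.31 in WT. The 6 subunits of the MCM helicase, which unwinds DNA at replication, had 1.07 in S435D and 1.05 in WT. The 8 genes of the Arp2/3 complex, which branches actin filaments, had 1.03 in S435D and 1.06 in WT. The chaperonin had the highest median of these 5 complexes, the next being the MCM helicase at 63.6 RPKM in S435D and 63.8 RPKM in WT.

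The ratios of these complexes were read by the same counts, against 56.6% of expressed genes lower in S435D. In the proteasome core 10 of 14 subunits were lower in S435D and 4 higher, with PSMA5 at 0.850 (0.798 to 0.907), PSMA2 at 0.871 (0.803 to 0.945), PSMB1 at 0.9002 (0.860 to 0.942) and PSMA6 at 0.903 (0.858 to 0.949) farthest from 1. In the MCM helicase 3 were lower and 3 higher, with MCM6 at 0.880 (0.831 to 0.933), MCM3 at 0.915 (0.894 to 0.937), MCM4 at 0.958 (0.927 to 0.989) and MCM2 at 1.02 (0.993 to 1.05). Of the 8 Arp2/3 genes, 7 were lower and 1 higher, with ARPC5 at 0.891 (0.854 to 0.929), ARPC1A at 0.934 (0.889 to 0.981), ARPC2 at 0.936 (0.888 to 0.986) and ACTR2 at 0.966 (0.912 to 1.02). With the same summed RPKM in each library, 12 of 14 proteasome, 6 of 6 MCM and 8 of 8 Arp2/3 genes were lower. Centring on all expressed genes made the Arp2/3 split 6 lower and 2 higher. The 56.6% holds for the deposited scaling only. Setting the same summed RPKM lowers all log2 ratios by up to 0.062. The upper quartile of expressed genes was 0.058 as deposited, and the share lower under that scaling was not computed.

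**Figure D3:**
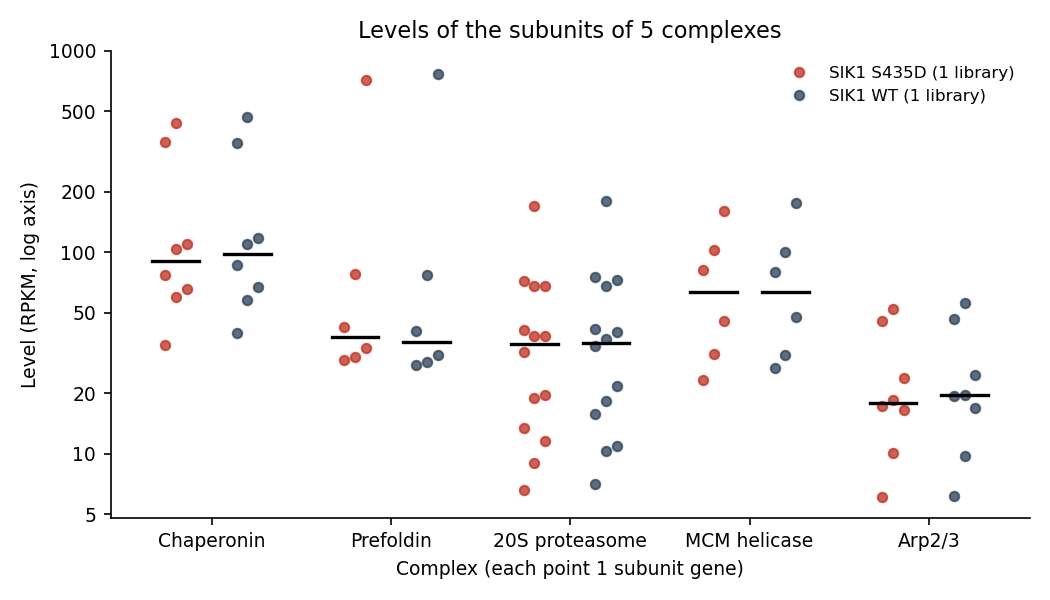
Levels in RPKM on a log axis of the subunit genes of 5 complexes, S435D left of WT in each pair, each point 1 gene and each black bar the median. The chaperonin medians are 90.3 RPKM in S435D and 97.9 RPKM in WT. PFDN2, at 714 RPKM in S435D and 769.5 RPKM in WT, stands apart within prefoldin, by a deposited length of only 677 bases.

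The libraries were then compared subunit by subunit, to see whether the complex moved as a unit. Differences were small. Of the 8 subunits, 6 were lower in S435D and 2 higher, with ratios of S435D over WT from 0.876 for CCT2 to 1.04 for TCP1. A log2 ratio below 0, taken after adding 0.5 RPKM to each level, was found in 56.6% of all expressed genes and in 55.3% of the 1230 with at least 3000 reads in each library, a depth that every subunit reached. None (0 of 8) differed by 2-fold, and neither did any other expressed gene (0%, 0 of 9985). The median log2 ratio of the 8 was -0.093, against -0.020 over all expressed genes and -0.011 over these deeply read genes, a group set after the data had been seen.

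CCT2 had 3517 reads in S435D and 3818 reads in WT, a ratio of 0.876 (0.836 to 0.917). CCT8 had 6085 reads in S435D and 6440 reads in WT, a ratio of 0.899 (0.867 to 0.931). These were the 2 subunits at least 1.1-fold lower in S435D, a size met by 16.2% of expressed genes and by 7.15% of the deeply read genes. No subunit (0 of 8) was 1.1-fold higher, against 9.94% of expressed genes and 6.26% of the deeply read genes.

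CCT4 followed at a ratio of 0.933 (0.903 to 0.964), from 7344 reads in S435D and 7486 in WT. CCT3, with 41299 reads in S435D and 41999 in WT, was at 0.935 (0.922 to 0.948). CCT5, with 14167 reads in S435D and 14329 in WT, was at 0.940 (0.919 to 0.962). With CCT2 and CCT8, these made 5 subunits whose counting interval lay below 1, which held for 15.9% of expressed genes and 32.7% of the deeply read genes.

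CCT6A, with 6019 reads in S435D and 5857 in WT, had a ratio of 0.977 (0.943 to 1.01). CCT7, with 29608 reads in S435D and 28009 in WT, had 1.01 (0.989 to 1.02). For both the counting interval included 1. TCP1, with 6958 reads in S435D and 6391 in WT, had 1.04 (1.0006 to 1.07), the only subunit with an interval above 1, as in 9.73% of expressed genes and 24.4% of the deeply read genes. Summed over all 8, the 114997 reads in S435D and 114329 reads in WT gave a ratio of 0.956 (0.949 to 0.964).

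The scalings tried moved the log2 ratios of all genes by no more than 0.062. They left CCT2, CCT8, CCT4, CCT3, CCT5 and CCT6A lower in S435D in each case, with CCT2 between -0.25 and -0.16, while TCP1 and CCT7 turned under 1 of them. Setting both libraries to the same summed RPKM put all 8 subunits lower in S435D, TCP1 included at a log2 ratio of -0.012 and CCT7 at -0.054. That scaling lowers most other genes too, since the upper quartile of expressed genes was 0.058 as deposited. The share of expressed genes lower under it was not computed. A trimmed mean of log ratios left 6 lower and 2 higher, with a median of -0.061.

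**Figure D4:**
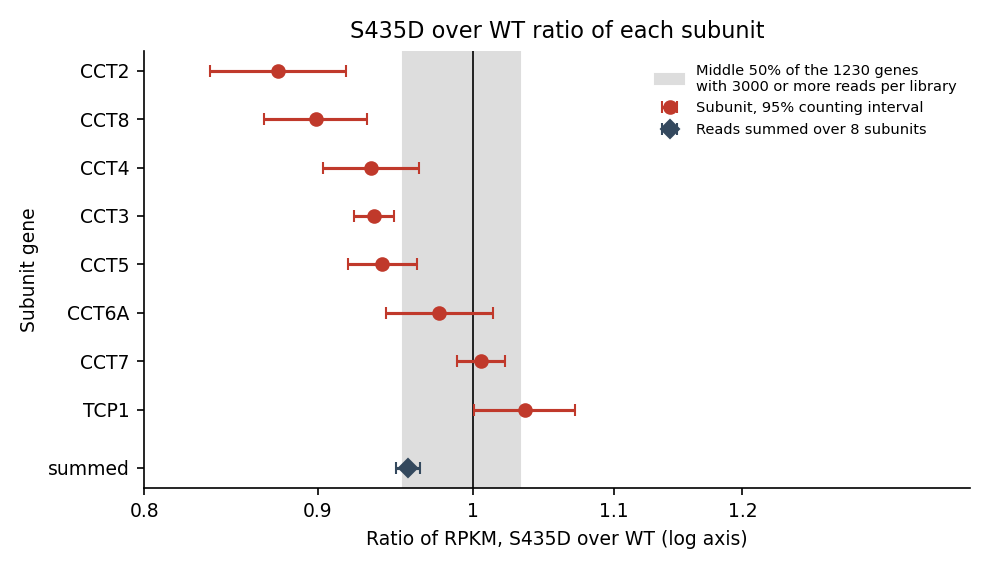
Ratio of RPKM, S435D over WT, on a log axis for each subunit and for the reads summed over the 8 (diamond), with 95% counting intervals from 1 library per group. The grey band is the interquartile range of the 1230 genes with at least 3000 reads in each library; CCT2, CCT8, CCT4, CCT3 and CCT5 (0.876 to 0.940) lie left of it, CCT6A and CCT7 inside it and TCP1 (1.04) just right of it, although with the same summed RPKM in each library TCP1 and CCT7 too fall below 1.

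Ratios between subunits do not depend on how the libraries are scaled. Relative to CCT2, TCP1 was 1.18 times (1.12 to 1.25) as abundant in S435D as in WT, the largest shift among the 28 pairs. Relative to CCT8, TCP1 was 1.15 times (1.097 to 1.21) and CCT7 was 1.12 times (1.08 to 1.16) as abundant. CCT3, CCT4 and CCT5 kept their proportions to each other within counting error, with CCT3 over CCT4 at 1.002 (0.968 to 1.04) and CCT4 over CCT5 at 0.992 (0.954 to 1.03). CCT2 over CCT8, the lowest ratios, was at 0.975 (0.920 to 1.03). In 19 of the 28 pairs the interval did not include 1, against 57.4% of all pairs of the deeply read genes; the 28 pairs share their 8 members. The SD of the 8 log2 ratios was 0.080, against 0.094 over the deeply read genes.

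As shares of the summed RPKM of the complex, CCT3 made up 35.3% in S435D and 36.1% in WT. CCT7 made up 28.3% in S435D and 26.9% in WT, and CCT2 made up 2.79% in S435D and 3.05% in WT. CCT7 thus took a larger share in S435D, and CCT3 and CCT2 smaller ones.

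Of the 8 genes, 5 overlap another listed gene with reads, and no source used here gives the strand setting of the counting. CCT5 (chromosome 5, 10249921 to 10266412, plus strand) shares 1757 exonic bases, 30.1% of its length, with CTD-2256P15.4 on the opposite strand, which had 444 reads in S435D and 495 in WT. CCT4 (chromosome 2, 61868089 to 61888804, minus strand) shares 275 exonic bases with AC107081.5 on the opposite strand, with 264 reads in S435D and 324 in WT. TCP1 (chromosome 6, 159778498 to 159789749, minus strand) shares 397 exonic bases with the end of ACAT2, a cytosolic thiolase gene, with 1441 reads in S435D and 1541 in WT. It also contains SNORA29, a small nucleolar RNA with 2 reads in S435D and 1 in WT. CCT3 and CCT8 overlap TSACC and AF129075.5 without a shared exonic base. Reads of overlapping genes cannot be told apart from the deposited values, but each overlapping gene had fewer reads than its subunit. The subunits that overlap no other gene with reads, CCT2, CCT6A and CCT7, had a median log2 ratio of -0.033. CCT3 and CCT8 are left out of that median although they share no exonic base, and their log2 ratios were -0.097 and -0.153.

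Pseudogenes of the subunits held few reads, and how the authors placed reads that match several copies is unknown. The table lists 11 pseudogenes named after a subunit, and 8 of them had any read. Together they held 79 reads in S435D and 112 reads in WT, equal to 0.0687% and 0.0980% of the subunit reads of S435D and WT. CCT6P1 held more than any other, with 46 reads in S435D and 53 in WT, followed by CCT6P3 with 21 reads in S435D and 36 in WT.

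Only genes that overlap a subunit or lie nearest to it on either side were looked at, with distances taken between the outermost positions listed. By that rule, 4 subunits have another gene starting within 1000 bases on the opposite strand, so that both are transcribed away from a common region. Genes behind a nearer neighbour were not counted, and other start positions could change the count. MRPL18, a protein of the large mitochondrial ribosomal subunit, lies 62 bases from TCP1 and was at 31.1 RPKM in S435D and 37.2 RPKM in WT. Its ratio was 0.835 (0.767 to 0.910), on the other side of 1 from TCP1. The exons of COMMD1, a gene tied to copper handling, share 81 bases with CCT4, and COMMD1 was at 5.87 RPKM in S435D and 6.26 RPKM in WT, a ratio of 0.937 (0.802 to 1.09).

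PSPH, an enzyme of serine synthesis, lies 25 bases from CCT6A (chromosome 7, 56051630 to 56063989, plus strand) and was at 9.21 RPKM in S435D and 9.97 RPKM in WT. PRADC1 lies 181 bases from CCT7 (chromosome 2, 73233420 to 73253021, plus strand) and was at 6.25 RPKM in S435D and 4.96 RPKM in WT, from 207 and 156 reads in S435D and WT. The chaperonin gene was the more abundant partner in each of the 4 pairs, from 1.93 times in S435D and 1.56 times in WT for TCP1 over MRPL18 to 56.0 times in S435D and 70.3 times in WT for CCT7 over PRADC1. The remaining subunits are CCT2 (chromosome 12, 69585334 to 69601570, plus strand), CCT3 (chromosome 1, 156308968 to 156367873, minus strand) and CCT8 (chromosome 21, 29055805 to 29073797, minus strand).

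Relatives of the chaperonin outside the complex were far lower. CCT6B, a close copy of CCT6A known from testis, had 6 reads in S435D and 9 reads in WT. The chaperonin-like genes of the Bardet-Biedl syndrome proteins, which help to assemble the BBSome of the cilium, stood at 5.19 RPKM in S435D and 5.18 RPKM in WT for MKKS, 1.62 RPKM in S435D and 1.52 RPKM in WT for BBS10, and 0.496 RPKM in S435D and 0.443 RPKM in WT for BBS12. No read of CCT8L1P was counted in S435D or in WT (0 in each, with an upper limit of 3). The mitochondrial chaperonin, a separate machine of HSPD1 and its lid HSPE1, lay between CCT7 and CCT4 in level. HSPD1 was at 143 RPKM in S435D and 153 RPKM in WT, a ratio of 0.935 (0.913 to 0.957), and HSPE1 at 156 RPKM in S435D and 158 RPKM in WT.

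Prefoldin, which hands clients to TRiC, had ratios mostly on the other side of 1. Of its 6 subunits, 5 were higher in S435D and 1 lower, against 43.4% of expressed genes higher, and their log2 ratios had a median of 0.067. The counting interval lay above 1 for 1 of the 5. PFDN1 was at 33.3 RPKM in S435D and 30.9 RPKM in WT, a ratio of 1.08 (1.01 to 1.16), and PFDN2, the lower one, had 0.928 (0.904 to 0.953). The ratios of VBP1 (1.06, 0.982 to 1.15), PFDN4 (1.05, 0.975 to 1.14), PFDN5 (1.04, 0.994 to 1.097) and PFDN6 (1.02, 0.981 to 1.06) all had intervals that included 1. With the same summed RPKM in each library, 4 were higher and 2 lower, and the median became 0.0063. The 43.4% does not apply to that scaling.

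Among the phosducin-like cofactors, which bind TRiC and adjust its folding of tubulin and G protein subunits, 3 of 5 were expressed. PDCL was at 16.5 RPKM in S435D and 18.4 RPKM in WT, a ratio of 0.894 (0.827 to 0.968). PDCL3 was at 36.9 RPKM in S435D and 37.8 RPKM in WT. TXNDC9 was at 2.67 RPKM in S435D and 2.14 RPKM in WT, from 177 and 135 reads in S435D and WT, with an interval of 0.991 to 1.57. PDCL2 had 0 reads in S435D and 5 in WT, and PDC had 0 in both. In the prefoldin-like and R2TP genes, which build other large complexes, 3 of 7 were higher and 4 lower, against 56.6% of expressed genes lower. The split was 4 and 3 when centred on all expressed genes. The members farthest from 1 were URI1 at 0.894 (0.840 to 0.952), UXT at 1.11 (0.995 to 1.24), PDRG1 at 0.909 (0.830 to 0.995) and PIH1D1 at 0.915 (0.859 to 0.974).

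The HSP70 system passes chains on to TRiC, and the heat shock factor HSF1 is a known activator of chaperone genes. Of its 9 genes, 6 were lower in S435D and 3 higher, against 56.6% of expressed genes lower. The middle log2 ratio was -0.059. With the same summed RPKM 8 were lower and 1 higher, a scaling to which the 56.6% does not apply. HSPA8, the constitutive HSP70, was at 298 RPKM in S435D and 333 RPKM in WT. Its partner DNAJA2 was at 36.8 RPKM in S435D and 39.8 RPKM in WT, and DNAJA1 at 219 RPKM in S435D and 229.8 RPKM in WT. DNAJB1, a stress-induced HSP40, lay on the other side, at 108.9 RPKM in S435D and 99.3 RPKM in WT, a ratio of 1.096 (1.06 to 1.13). Other stress-induced genes of the list did not share this. HSPA1B, the most abundant, was at 4006 RPKM in S435D and 4183 RPKM in WT, a ratio of 0.958 (0.952 to 0.963). BAG3 had a ratio of 0.960 (0.919 to 1.003) and HSPA1A 1.003 (0.989 to 1.02). HSF1 was at 8.31 RPKM in S435D and 8.29 RPKM in WT, a ratio of 1.002 (0.918 to 1.09).

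Among the clients, the actins differed little between the libraries. With the same summed RPKM 3 of 3 were lower in S435D, but the share of all expressed genes lower under that scaling was not computed. Of 3 expressed actins, ACTB was at 470.1 RPKM in S435D and 468 RPKM in WT (ratio 1.004, 0.989 to 1.02), ACTG1 at 813 RPKM in S435D and 833 RPKM in WT, and ACTA2 at 3.46 RPKM in S435D and 3.68 RPKM in WT. Of 12 expressed tubulins, 5 were higher and 7 lower, against 56.6% of expressed genes lower. The split became 7 and 5 with a trimmed mean of log ratios. TUBG1, the gamma tubulin of spindle poles, was at 207 RPKM in S435D and 188 RPKM in WT, and TUBB4A at 37.6 RPKM in S435D and 34.4 RPKM in WT. TUBB6 had a ratio of 0.912 (0.875 to 0.9499), TUBB2A 0.928 (0.857 to 1.005) and TUBB 1.01 (0.988 to 1.03). Actin and tubulin genes have near-identical copies, as have HSPA1A and HSPA1B, which leaves their levels uncertain.

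Tubulin leaves TRiC for a set of folding cofactors. Of these, 3 were higher and 4 lower (4 and 3 when centred on all expressed genes), against 56.6% of expressed genes lower. TBCE, which joins alpha and beta tubulin, was at 24.8 RPKM in S435D and 30.2 RPKM in WT, a ratio of 0.821 (0.766 to 0.881). ARL2, the small GTPase of these cofactors, was at 67.8 RPKM in S435D and 62.7 RPKM in WT, a ratio of 1.08 (1.03 to 1.14). TBCEL was at 1.13 (0.913 to 1.396) and TBCD at 0.930 (0.868 to 0.996). Of 15 other clients, 11 were lower and 4 higher (middle log2 ratio -0.047), against the same 56.6%. Centring on the median of all expressed genes made this 8 and 7. BBS7, of the BBSome, had a ratio of 0.817 (0.714 to 0.934), CCNE1, a cyclin, 0.903 (0.822 to 0.991), and WRAP53, which carries telomerase RNA, 0.8996 (0.783 to 1.03). For STAT3, a transcription factor, the level was 4.57 RPKM in S435D and 5.01 RPKM in WT, 947 and 987 reads in S435D and WT.

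**Figure D5:**
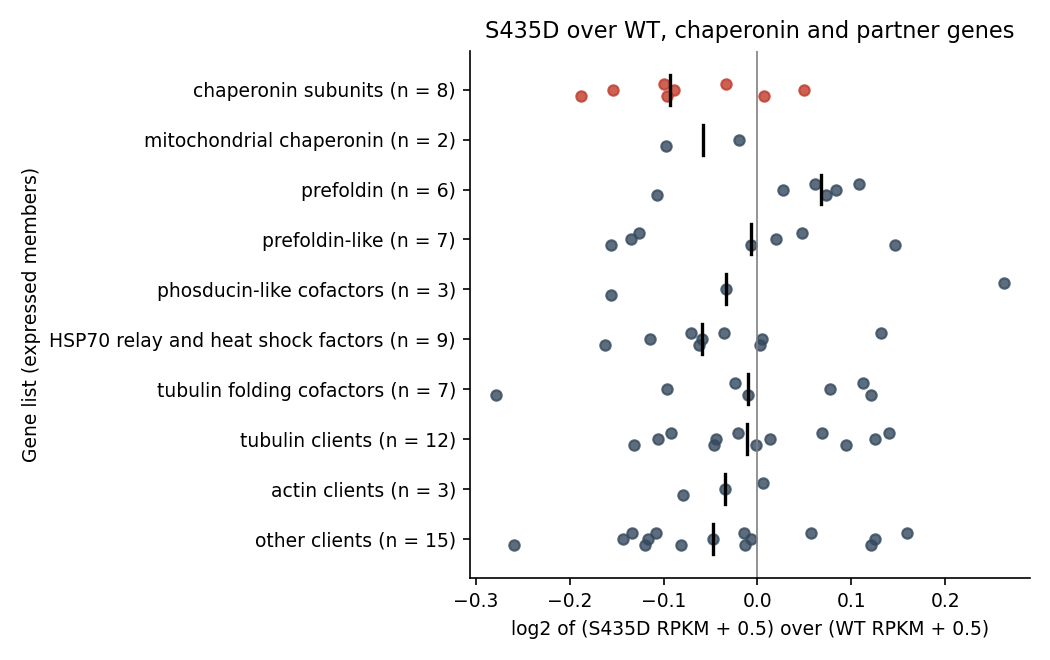
Log2 ratio, S435D over WT, with 0.5 RPKM added to both levels, for expressed members of each list, each point 1 gene and each black bar the list median, with 1 library per group. The chaperonin subunits (median -0.093) lie mostly left of 0 and prefoldin (median 0.067) mostly right of it.

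The genes nearest to the median of the 8 subunits in the plane of both log2 levels, a likeness over only 2 libraries, were CNBP, HDAC1, TPT1, GTPBP4 and HNRNPUL2. CNBP was nearest, at 90.1 RPKM in S435D and 98.6 RPKM in WT, at a distance of 0.024. HNRNPUL2, the fifth, was at 92.5 RPKM in S435D and 96.5 RPKM in WT, at 0.051.

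GC content was also set beside the ratios. Over the deeply read genes from 43% to below 46% GC, where 6 of the subunits lie, the median log2 ratio was -0.039 (150 genes), and from 51% to below 53% GC, where CCT3 and CCT7 lie, it was -0.019 (126 genes). Among those 6, CCT2, CCT8, CCT4 and CCT5 lay below the median of their GC range and CCT6A and TCP1 above it. CCT3 lay below the median of its range and CCT7 above. The part of GC content in the ratios was not tested.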

How the data were processed

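The deposited table gives RPKM per gene for both libraries with exon positions, strand and length, per the file headers; aligner, counting program, strand setting, build and annotation of the authors were not given in any source used here. RPKM times length was a whole multiple of 1 step for 100% of values (tolerance 0.01 reads), which gave back whole reads. Start and end of all 8 subunits, and of 93.3% of 28274 genes matched by symbol, equal GENCODE 29 (GRCh38).

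Computed here were ratios of RPKM, S435D over WT, with exact conditional binomial intervals, levels with exact Poisson intervals, ratios between subunits with log-normal intervals, and log2 ratios with 0.5 RPKM added. Protein-coding genes came from GENCODE 29 and RefSeq symbols, older ones included. The interval code was tested on simulated data. Named genes are the subunits, their relatives, cofactors, overlapping genes and neighbours (those over 1000 bases away are not described) and pseudogenes (those with most reads), the 4 farthest members of each other list with STAT3, HSF1, HSPA8, ACTB and TUBB, and the 5 nearest genes; other genes were named after their values were seen. A client gene that this rule names is not reported here. For CCT8L2, protein sequences and the CCT6A promoter, nothing was used here. Members and lists were chosen with earlier results of these data known. Tools were matplotlib 3.10.9, SciPy 1.17.1, pandas 2.3.3 and numpy 2.4.6 under Python 3.11.15.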

Additional observations from a re-analysis of the deposited data

How the results depend on the processing

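No paired analysis was possible because each group has 1 library. Pseudocounts of 0.1, 1 and 0 RPKM changed no direction. The median log2 ratio of the 8 subunits was -0.073 centred on all expressed genes and -0.061 with a trimmed mean of log ratios. It was -0.15 with the same summed RPKM and -0.080 without mitochondrial reads. For the 3 subunits that overlap no other gene with reads it was -0.033. That median leaves out CCT3 and CCT8, which share no exonic base with the genes they overlap. The summed ratio was 0.970, 0.978, 0.916 and 0.965 under the 4 scalings in the order given. Leaving out each subunit in turn gave 0.941 to 0.969. TCP1 turned to a log2 ratio of -0.012 only with the same summed RPKM, by construction a shift of all genes by 0.062; CCT7 turned to -0.054 there. The number of subunits past the size rule was 2 at 1.1-fold. The 2 other lengths and the group of deeply read genes were chosen after seeing the data. Lengths of the principal transcript gave a highest-to-lowest gap of 11.1 in S435D and 10.4 in WT and kept 3 subunits at their rank; coding lengths gave 11.5 and 10.8 and kept 4; the planned coding length from a protein table was not run. Without a filter the median of all protein-coding genes was 0 and 0.00542% passed 2-fold; among deeply read genes 7.15% were 1.1-fold lower. Counting error is given by the intervals and the spread between replicates is unknown. In all, 0 of 8 subunits passed 2-fold under each scaling tried.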
